A study of Mus musculus with 8 samples.

Results

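The complement genes described here are C3, C4b, C1s1, C1ra, Cfb, Cfd and Masp1, which encode proteins that drive the cascade, and Serping1 and Cd55, which encode regulators that restrain it. These 9 genes were taken by name from a table of 53801 genes. RNA was sequenced from CD45-negative, CD31-negative cells, a gate that leaves out leukocytes and endothelium, of the small intestine of LTβRYFP mice treated with indomethacin, a cyclooxygenase inhibitor that causes intestinal ulcers. The cells came from those ulcers and were sorted into 4 YFP-negative and 4 YFP-positive libraries, numbered 1 to 4 in each group. Both groups carried the reporter strain and the drug, and no untreated mice entered the comparison. The sources used here do not give the age of the mice, the dose or its timing, the number of mice behind a library or how YFP relates to Ltbr expression. They also do not say that libraries came from separate animals, so a p-value reflects just the variation among these libraries, which may be technical.

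Complement is a protease cascade of blood and tissue fluid that tags targets and recruits leukocytes. The classical pathway starts when C1q binds a target and activates its proteases C1r and C1s, which cut C4, whereas the lectin pathway uses MASP proteases in their place. All routes converge on C3, whose cleavage is amplified by factor B and factor D in the alternative pathway. C1 inhibitor blocks C1r, C1s and the MASP proteases, CD55 takes apart the enzymes that cleave C3, and fibroblasts are known local producers of several of these proteins.

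C3, C4b, C1ra and Masp1 fell in YFP-positive cells and none of the 9 genes rose, when the replicate number was included as a block. C3 was at a mean of 13203 ± 1914 CPM (TMM-normalised counts relative to library size; SD, n = 4) in YFP-negative and 8250 ± 1328 CPM (SD, n = 4) in YFP-positive libraries. C4b was at 1768 ± 141 against 1291 ± 61.9 CPM, C1ra at 460.3 ± 22.4 against 377.9 ± 34.5 CPM, and Masp1 at 26.2 ± 9.51 against 14.2 ± 6.51 CPM (SD, n = 4). C1s1 and both regulators were tested and did not pass, and Cfb and Cfd had too few counts to pass the count filter of this fit. Of all 15945 genes tested, 1.59% were called lower, 0.696% higher and 2.28% in either direction in that fit, at an adjusted p of 0.05 or below (edgeR quasi-likelihood test, Benjamini-Hochberg). Without the block edgeR called none of the genes tested, members included (0%), and at an unadjusted p below 0.05 it found 156 genes higher and 169 lower (1.06%), with C3, C4b and Masp1 among the lower. DESeq2 without the block called 2 genes, Gfap and 4930533B01Rik, which are named only because the count is small. "Fell" and "rose" refer below to the blocked edgeR fit.

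The upstream sequence of C3 is shown because C3 was the most abundant member, and that of C1s1 because it held the other match among the windows searched. The set of RefSeq start sites used here (GRCm38.p6) held 5 of the 9 members, namely C3, C1s1, C1ra, Cfd and Cd55. C4b, Serping1, Cfb and Masp1 were missing from that set and were not searched. The 250 bases before each start were searched on both strands for the C/EBP motif TTNNGCAA, the STAT motif TTCNNNGAA, and the usual NF-kB and interferon-response (ISRE) consensus motifs. Capitals mark matches to the C/EBP motif, and both windows are on the minus strand, written 5′ to 3′ and ending at the base before the start.
C3, chr17:57228137-57228386: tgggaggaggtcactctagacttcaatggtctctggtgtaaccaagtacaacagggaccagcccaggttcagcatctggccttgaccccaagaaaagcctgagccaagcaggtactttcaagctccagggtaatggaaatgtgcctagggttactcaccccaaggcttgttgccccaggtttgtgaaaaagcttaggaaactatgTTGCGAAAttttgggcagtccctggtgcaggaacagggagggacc
C1s1, chr6:124542360-124542609: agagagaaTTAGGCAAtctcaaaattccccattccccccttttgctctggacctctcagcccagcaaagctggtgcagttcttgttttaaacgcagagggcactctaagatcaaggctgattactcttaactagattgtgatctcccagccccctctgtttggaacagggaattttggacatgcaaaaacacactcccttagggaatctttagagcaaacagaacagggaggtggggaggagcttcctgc
The C3 match lay 45 to 38 bases before the start and read as the motif on the strand opposite to the printed one. The C1s1 match lay 242 to 235 bases before its start and read as the motif on the printed strand. Of 32851 mouse windows of this length, 9.56% held the C/EBP motif, 7.25% the NF-kB, 7.02% the STAT and 2.98% the interferon-response motif. In a second annotated start of C1s1, and in the windows of C1ra, Cfd and Cd55, none of these letters were found. The C1ra window ran from 124512371 to 124512620 on chromosome 6. The gene coordinates given below start at 124512405, so most of that window lay within the gene by that annotation. A match is a description of the letters and was not tested as a site.

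Total counts ranged from 12481608 to 29385718 per library. Libraries of equal replicate number deviated from their group means together, at correlations of 0.233 to 0.487 over genes, and both libraries numbered 2 differed most from the others on principal component 1 (92.5 and 78.7, against -46.2 to -12.4). Pdgfra, which marks fibroblasts, stood between 1310 and 2025 CPM, whereas the leukocyte gene Ptprc, encoding CD45, stood between 0.877 and 12.2 CPM and the endothelial gene Pecam1, encoding CD31, between 11.1 and 46.9 CPM. YFP-positive replicate 4 stood apart in the summed endothelial markers, at 145 CPM against 23.4 to 81.8 CPM elsewhere, and in the summed epithelial markers, at 139.6 CPM against 11.2 to 35.3 CPM elsewhere. Without pair 4, C3, C4b and Masp1 were still called with the block and C1ra was not.

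**Figure D1:**
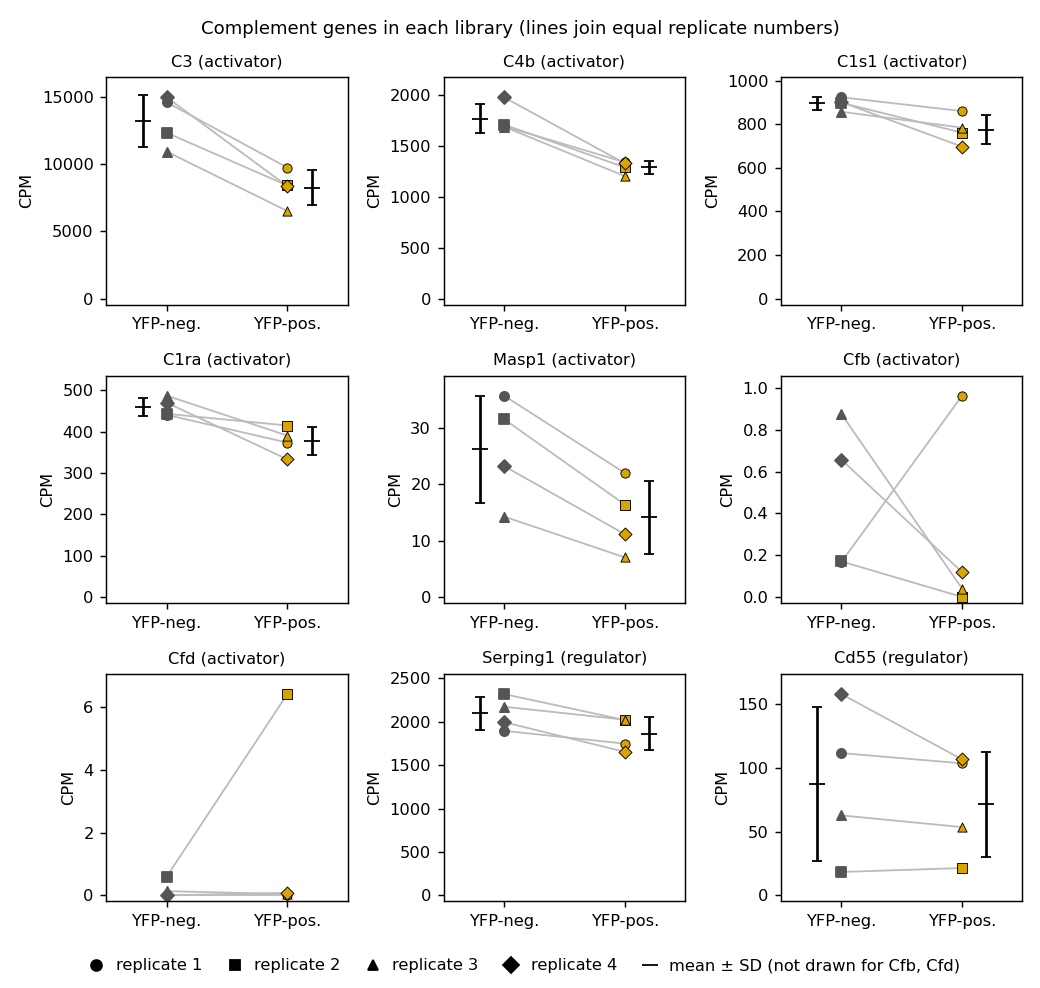
Normalised level (CPM, linear axes that include 0) of the 9 complement genes in each library, with lines joining libraries of equal replicate number and bars at the group mean ± SD (n = 4, not drawn for Cfb and Cfd). For C3, C4b and C1ra the YFP-positive libraries all lie below the YFP-negative ones, Masp1 falls within every pair although its groups overlap, Cd55 is lowest in replicate 2 of both groups, and 1 library holds most of the Cfd signal.

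C3 (ENSMUSG00000024164, GRCm38 chromosome 17, 57203970 to 57228136, minus strand) encodes the protein on which all complement pathways converge. It stood at 14594, 12326, 10927 and 14966 CPM in the YFP-negative replicates 1 to 4, against 9736, 8406, 6505 and 8352 CPM in YFP-positive replicates 1 to 4. Every YFP-positive library lay below every YFP-negative library, a pattern that 0.859% of the genes tested shared, and replicate 3 was the lowest in both groups. The log2 fold change was -0.68 ± 0.068 (SE; blocked adjusted p = 8.04e-05, edgeR), a 0.624-fold level with a 95% confidence interval of 0.564 to 0.690. Without the block the estimate was also -0.68, with an interval of -1.10 to -0.26 (unadjusted p = 0.00440, adjusted p = 0.99985, edgeR). C3 alone took 1.12% to 1.42% of all counts in the YFP-negative and 0.693% to 0.962% in the YFP-positive libraries.

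C4b (ENSMUSG00000073418, chromosome 17, 34728380 to 34743882, minus strand) encodes C4, the substrate of C1s. Its CPM values were 1695, 1710, 1690 and 1979 in YFP-negative and 1340, 1290, 1204 and 1329 in YFP-positive replicates 1 to 4. The groups did not overlap, and the spread within a group was small beside the distance between them. C4b fell by 0.45 on the log2 scale (SE 0.062, blocked adjusted p = 7.96e-04, edgeR), with changes of -0.34, -0.41, -0.49 and -0.57 in pairs 1 to 4. The neighbouring copy C4a, whose transcripts contain 35.2% of the 50-base windows of C4b, was at 3.97 ± 1.29 and 2.90 ± 1.12 CPM (SD, n = 4). The sources used here do not give how reads that fit both copies were counted, so the split between C4b and C4a is uncertain.

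The proteases of the C1 complex are encoded side by side on chromosome 6, C1ra (ENSMUSG00000055172) at 124512405 to 124523443 on the plus strand and C1s1 (ENSMUSG00000038521) at 124530345 to 124542359 on the minus strand. C1ra stood at 441, 443, 487 and 470.3 CPM in YFP-negative libraries, against 374, 415, 390.4 and 333 CPM in YFP-positive libraries, replicates 1 to 4. Its groups did not overlap, and YFP-positive replicate 2 came nearest to the YFP-negative libraries. C1ra fell by 0.29 on the log2 scale (SE 0.070, blocked adjusted p = 0.0422, edgeR), close to the threshold. C1s1 stood at 924, 898, 857 and 902 CPM in YFP-negative libraries, against 860.1, 761, 784 and 697 CPM in YFP-positive replicates 1 to 4. YFP-positive replicate 1 lay above YFP-negative replicate 3, so the groups overlapped. C1s1 was lower in 4 of 4 pairs but did not pass the test (log2 fold change -0.21, 95% confidence interval -0.35 to -0.07, blocked adjusted p = 0.130, edgeR). The copies C1rb and C1s2 contain 48.0% and 24.3% of the 50-base windows of C1ra and C1s1, and were at 1.17 to 3.88 CPM in the group means. Of the exon bases of C1s1, 81.6% are free of another annotated gene, the antisense gene Gm16567 covering the rest.

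Masp1 (ENSMUSG00000022887, chromosome 16, 23449417 to 23520815, minus strand) encodes a protease of the lectin pathway. Its values were 35.8, 31.6, 14.3 and 23.3 CPM in YFP-negative libraries, against 22.0, 16.4, 7.04 and 11.2 CPM in YFP-positive replicates 1 to 4. The order of the replicate numbers was the same in both groups, and YFP-negative replicate 3 lay below YFP-positive replicates 1 and 2. Within pairs the log2 changes were -0.70, -0.94, -1.01 and -1.05, and Masp1 had the largest fitted fall of the tested members, -0.93 ± 0.145 (SE; blocked adjusted p = 0.00235, edgeR). Its log2 interval with the block, -1.24 to -0.62, overlapped that of C3, -0.83 to -0.54.

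Cfb and Cfd encode factor B and factor D, the proteases of the alternative pathway, and both had too few counts to pass the count filter. Cfb (ENSMUSG00000090231, chromosome 17, 34856374 to 34862518, minus strand) had 3, 2, 26 and 13 counts in YFP-negative and 28, 0, 1 and 3 counts in YFP-positive replicates 1 to 4. Its counts cannot be read as its level: the annotated gene Gm20547 overlaps it on the same strand and leaves 579 of 2825 exon bases, or 20.5%, to Cfb alone. The treatment of reads in shared bases is unknown. C2, which encodes another protease of the cascade and shares Gm20547, has 57.2% of its exon bases free of a gene on its own strand and was at 1.23 ± 1.04 and 1.92 ± 0.773 CPM (SD, n = 4).

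Cfd (ENSMUSG00000061780, chromosome 10, 79890853 to 79892655, plus strand) had 0, 7, 4 and 0 counts in YFP-negative and 0, 93, 1 and 2 counts in YFP-positive replicates 1 to 4. YFP-positive replicate 2 therefore held 93 of its 107 counts, and its partner YFP-negative replicate 2 had the next highest count. Factor D is also known as adipsin, a product of fat cells, and adipocyte genes, looked up after the Cfd values were seen, were present in the same library. Plin1, Lep, Adipoq and Cidec stood there at 4.35, 2.42, 2.56 and 1.52 CPM, and in the other 7 libraries at no more than 0.515, 0, 0.792 and 0.158 CPM. Fabp4, at 9.25 CPM there, was highest in YFP-positive replicate 4 with 10.1 CPM. The part of fat cells in the Cfd counts was not tested.

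Among the regulators, Serping1 (ENSMUSG00000023224, chromosome 2, 84765387 to 84775444, minus strand) encodes C1 inhibitor. It was at 1897, 2320.1, 2174 and 1997 CPM in YFP-negative libraries, against 1748, 2021, 2025 and 1654 CPM in YFP-positive replicates 1 to 4. The groups overlapped, and each YFP-positive library lay below its partner. Its log2 fold change was -0.17 (95% confidence interval -0.30 to -0.04, blocked adjusted p = 0.219, edgeR), and it did not pass.

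Cd55 (ENSMUSG00000026399, chromosome 1, 130439027 to 130462744, minus strand) encodes the membrane-bound decay accelerating factor. It stood at 112, 18.3, 62.7 and 158 CPM in YFP-negative libraries, against 103.5, 21.4, 53.5 and 107 CPM in YFP-positive replicates 1 to 4. Replicate 2 was the lowest of its group in both, and the replicate numbers differed far more than the groups did, with 8.62 times between the highest and the lowest library. Cd55 was higher in the YFP-positive library of pair 2 and lower in the other 3 (log2 fold change -0.20, 95% confidence interval -0.42 to 0.02, blocked adjusted p = 0.536, edgeR). Without the block the estimate was -0.30 with an interval of -1.63 to 1.03, so that neither direction was shown.

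Over the 9 genes, 4 fell, 3 were tested and not called, and 2 were not tested. The 7 tested had a median log2 fold change of -0.29 with the block, against 0.0048 over all genes tested. Of those 7, 6 lay below their YFP-negative partner in 4 of 4 pairs, as did 10.2% of all genes tested. C3, C4b and Masp1 were called in 12 of 12 fits with the block, which varied the scaling, the filter, the tool, the mitochondrial genes and the pair left out. C1ra lost its call in 4 of them, with an adjusted p of 0.160 with library sizes alone and of 0.0904, 0.213 and 0.256 without replicates 1, 3 and 4 (edgeR). C1s1 and Serping1 were called in 2 of the 12, by DESeq2 and by limma voom, and Cd55 in 0. In the authors' deposited table, C3, C4b, Masp1, C1ra, C1s1 and Serping1 were called lower (adjusted p = 3.35e-29, 3.40e-13, 1.53e-05, 0.00231, 0.0224 and 0.0347). Those values come from the same counts and are no separate evidence. The processing notes name DESeq2 but do not give its model.

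**Figure D2:**
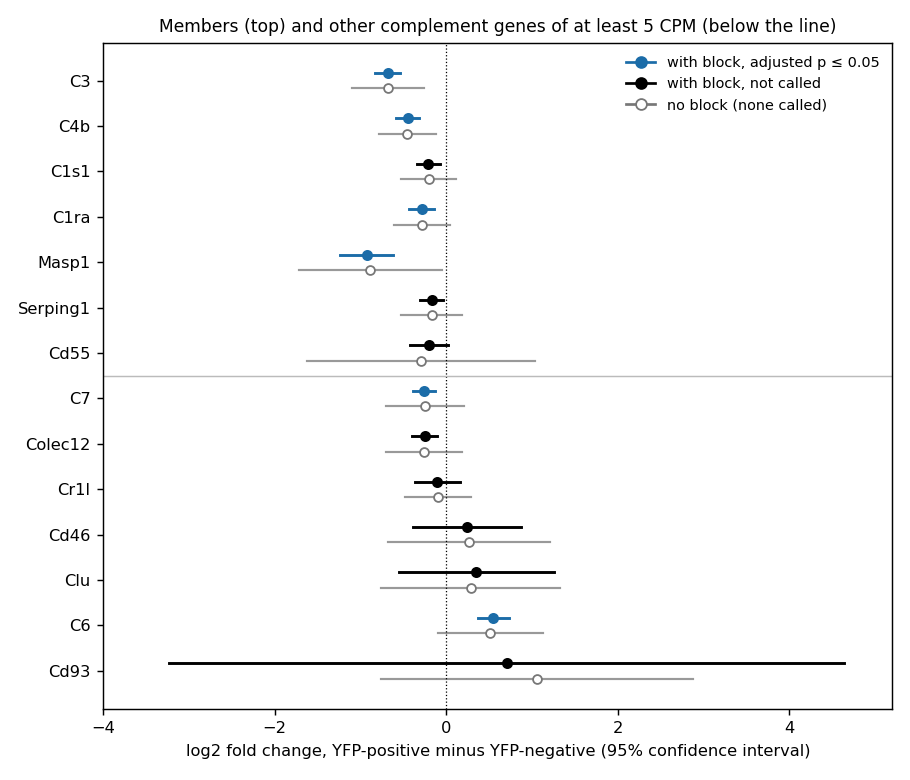
Log2 fold changes, YFP-positive minus YFP-negative, with 95% confidence intervals from edgeR (n = 4 libraries a group), with the replicate block in filled and without it in open symbols, for the 7 tested members and for other complement genes with a mean of at least 5 CPM. For each of the 7 members the interval is wider without the block, for Cd93 it is wider with it, and C6 is the one plotted gene called higher.

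Levels of different genes were compared per exon length, as RPKM (CPM per kilobase of exon). C3 was the highest, at 2567 ± 372 RPKM in YFP-negative and 1604 ± 258 RPKM in YFP-positive libraries (SD, n = 4). Serping1 followed at 902 ± 80.8 and 801 ± 81.5 RPKM, so that C1 inhibitor RNA lay above that of its targets C1s1, at 286 ± 8.88 and 248 ± 21.5 RPKM, and C1ra, at 154 ± 7.50 and 127 ± 11.6 RPKM (SD, n = 4). C4b, at 310.5 ± 24.7 and 227 ± 10.9 RPKM (SD, n = 4), had no single order against C1s1 over both groups. It was the higher of the pair in 5 of 8 libraries, namely every YFP-negative library and YFP-positive replicate 4. C1s1 was the higher in the other YFP-positive libraries. Cd55 and Masp1 were far lower, at 18.0 ± 12.4 and 2.67 ± 0.967 RPKM in YFP-negative and at 14.7 ± 8.48 and 1.44 ± 0.662 RPKM in YFP-positive libraries (SD, n = 4). The order C3, Serping1, C1s1 or C4b, C1ra, Cd55, Masp1 held in 8 of 8 libraries at every other step. Cfd lay below Masp1 in 7 of 8 libraries and above it in YFP-positive replicate 2, at 6.97 against 1.67 RPKM, and Cfb was given no place in the order because most of its exon bases are shared.

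**Figure D3:**
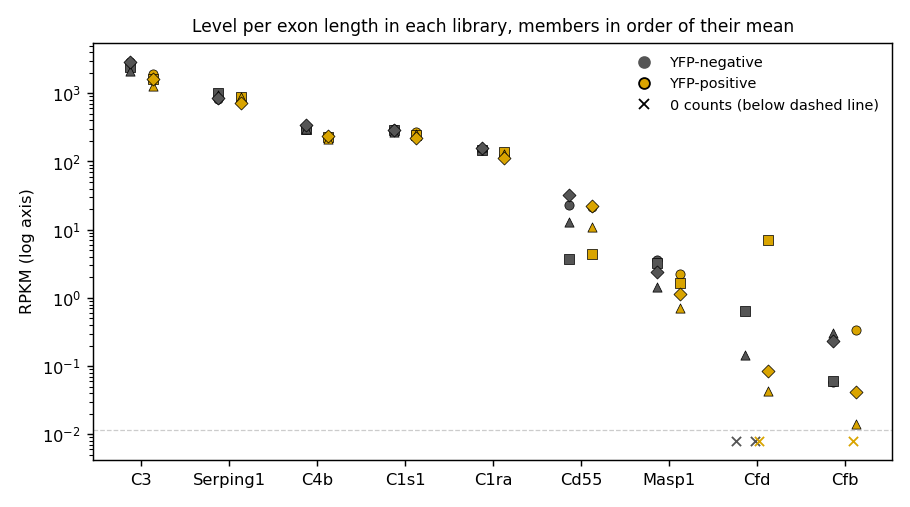
Level per exon length (RPKM, log axis) of each member in each library, YFP-negative in grey and YFP-positive in yellow, with symbols for the replicate numbers as in the plot of CPM by library and crosses for libraries with 0 counts. C3 stands between 1265 and 2910 RPKM in every library and Masp1 between 0.716 and 3.64, while the YFP-positive ranges of C4b and C1s1 overlap and Cfb is drawn from counts that may be shared with another gene.

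The activators and the regulators were then set against each other within pairs. Over all 7 activators the mean log2 CPM changed by 0.0094, -0.071, -0.91 and -0.61 in pairs 1 to 4, and over the 2 regulators by -0.11, 0.012, -0.17 and -0.42. The difference between them was -0.22 ± 0.369 (SD over 4 pairs), with 3 pairs below 0, and so smaller than the spread between pairs. That spread came with Cfb and Cfd, whose few counts weigh as much as those of C3 in this mean. With the 5 activators that passed the count filter, a choice made after seeing the data, the activators changed by -0.51 ± 0.121 and the difference from the regulators was -0.34 ± 0.0952 (SD over 4 pairs), below 0 in 4 of 4. With the CPM of each side summed, so that C3 dominates, the difference was -0.43 ± 0.104 (SD over 4 pairs). No p-value is given for these scores, because the members were chosen with results of these data known. The ratio of C3 to Serping1 in CPM was 7.70, 5.31, 5.03 and 7.50 in YFP-negative and 5.57, 4.16, 3.21 and 5.05 in YFP-positive replicates 1 to 4, and was lower in YFP-positive cells within each pair. The ratio of C1s1 to Serping1, a protease to its inhibitor, was 0.487, 0.387, 0.394 and 0.452 in YFP-negative against 0.492, 0.377, 0.387 and 0.421 in YFP-positive replicates, higher in pair 1 and lower in the other 3.

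**Figure D4:**
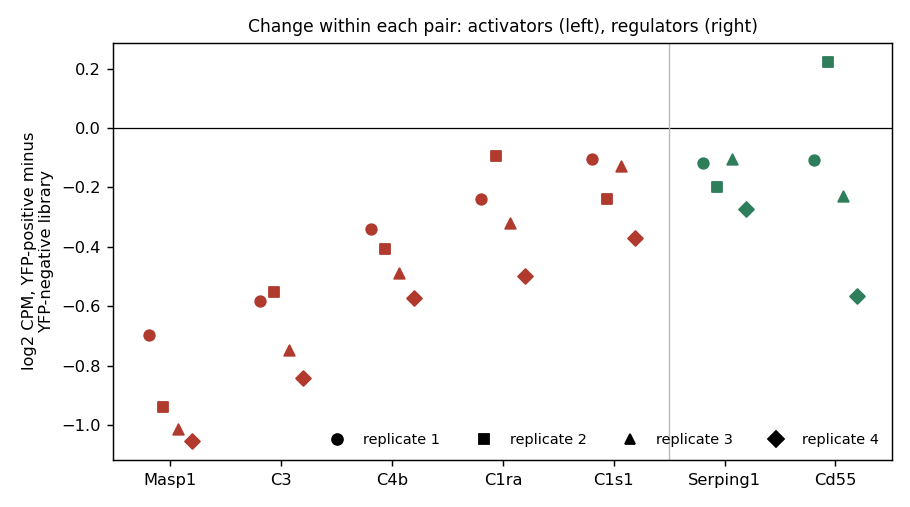
Log2 CPM of the YFP-positive minus the YFP-negative library within each pair of equal replicate number, for the 5 tested activators in red and for Serping1 and Cd55 in green. All activator points lie below 0, from -0.10 for C1s1 and C1ra to -1.05 for Masp1, and 1 point of Cd55 lies above 0.

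The rest of the pathway was read from a list of 54 complement genes by role, which held the 9 members. Of the 45 others, 28 were tested, and their median log2 fold change with the block was 0.25. That median weighs genes of few counts as much as abundant ones. C2 and Colec10, at 1.23 to 3.79 CPM in the group means, had estimates of 1.03 and 1.01 and were not called. Of the more abundant genes, Colec12, C7 and Cr1l stood at -0.25, -0.26 and -0.11, and C6 at 0.55. Among the terminal components, which form the membrane attack complex, C6 rose from 87.1 ± 31.8 to 124 ± 34.6 CPM (SD, n = 4), by 0.55 on the log2 scale (blocked adjusted p = 0.00200, edgeR), and was higher in 4 of 4 pairs, in the direction opposite to C3. C7, its partner in that complex, fell from 898 ± 162 to 754 ± 160 CPM (SD, n = 4), by -0.26 on the log2 scale (blocked adjusted p = 0.0286, edgeR). C6 was called in 12 and C7 in 7 of the 12 blocked fits. C7 reached an adjusted p of 0.196 with library sizes alone (edgeR).

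Other classical and lectin pathway genes did not pass. In the classical pathway, C1s2 and C4a had the highest CPM of those that are not members, at 3.80 ± 1.45 and 3.97 ± 1.29 CPM in YFP-negative libraries (SD, n = 4). C1qa, C1qb and C1qc, which encode the recognition subunit and are products of macrophages, stood between 0.612 and 4.28 CPM in every library, and none of these passed the test. Macrophage markers were also low: Adgre1, Csf1r, Cd68, Lyz2 and Fcgr1 summed to 13.2 to 23.1 CPM in YFP-negative and 11.2 to 31.3 CPM in YFP-positive libraries. Of the lectin pathway, the scavenger receptor gene Colec12 was at 372 ± 78.0 and 311 ± 53.3 CPM (SD, n = 4; blocked adjusted p = 0.0733, edgeR) and Colec10, a soluble collectin, at 2.42 ± 2.03 and 3.79 ± 1.56 CPM (SD, n = 4). Cfp, which encodes properdin, the stabiliser of the alternative pathway, was at 3.37 ± 0.271 and 3.39 ± 1.03 CPM (SD, n = 4). The membrane regulator Cr1l, or Crry, was at 35.8 ± 3.35 and 33.4 ± 5.34 CPM (SD, n = 4; blocked adjusted p = 0.871, edgeR). Of 9 receptor genes 6 were tested and 0 called, with Cd93 at 4.73 ± 4.57 and 9.69 ± 10.5 CPM and the anaphylatoxin receptor C5ar1 at 3.33 ± 1.64 and 4.89 ± 1.53 CPM (SD, n = 4).

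The genes whose values over the 8 libraries lay nearest to those of C3 were found by the root mean square difference of log2 CPM, each gene centred on its own mean. They were Olfml2b (0.0965), the matrix protein gene Svep1 (0.112), the BMP antagonist Grem1 (0.114), the alarmin Il33 (0.120) and Rnd2 (0.137). C4b ranked 14, C1s1 165 and C1ra 221 by this measure, whereas Serping1 ranked 1194, Masp1 2448 and Cd55 10205. The nearest genes were thus mostly outside the complement system, and this likeness is a description over 8 libraries that share pairs and scaling.

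Fibroblast markers differed between the groups as well. Of 8 general fibroblast markers 5 were called lower with the block and 0 higher, and of 6 markers of adventitial fibroblasts and trophocytes 4 were lower and 0 higher, whereas of 5 tested markers of subepithelial fibroblasts 3 were higher and 0 lower. Of all genes tested, 1.59% were called lower and 0.696% higher in that fit, and edgeR without the block called 0%. The summed adventitial markers stood between 963 and 1248 CPM in YFP-negative and between 644 and 904 CPM in YFP-positive libraries, lower in 4 of 4 pairs. Grem1, named above among the genes nearest to C3, held most of that sum in every library. Pi16 and Dpp4 were not called, with log2 estimates of -1.34 and 1.02. The collagen gene Col3a1 and Dcn, encoding decorin, changed by -0.48 and -0.42 on the log2 scale and Lum, encoding lumican, by -0.70. Pdgfra changed by -0.0037 (blocked adjusted p = 0.993, edgeR). Summed smooth muscle markers were higher in 4 of 4 pairs, at 187 to 356 CPM against 233 to 489 CPM, with Myh11 the 1 of 4 called higher (0.47 on the log2 scale). Summed pericyte markers were lower in 4 of 4 pairs, at 1202 to 1639.5 CPM against 1053 to 1349.5 CPM, with Rgs5 the 1 of 4 called lower (-0.36 on the log2 scale). Rgs5 held most of that sum in every library. The other pericyte markers, Kcnj8, Abcc9 and Notch3, had log2 estimates above 0 (0.15, 0.15 and 1.18) and were not called. Enteric glia markers were lower in 4 of 4 pairs, at 5.21 to 33.6 CPM against 1.52 to 3.86 CPM, and mitochondrial genes took 8.07% to 12.4% of the counts in YFP-negative and 7.71% to 9.43% in YFP-positive libraries. In bulk libraries fewer cells that express C3 and less C3 RNA per cell cannot be told apart, and the part of these marker changes in the fall of C3 was not tested.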

How the data were processed

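Per the submitters' processing notes, reads were handled with cutadapt 3.4, STAR 2.7.3a, featureCounts 2.0.1 and DESeq2 on GRCm38; these notes give no settings, annotation release or strand option. The one deposited table holds raw counts per gene, used for everything computed here. It also holds the authors' normalised counts, a score rounded to whole numbers, with their mean as a signal, and the authors' fold change (a ratio and its log2) with p-values, per the file headers.

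Counts were tested with edgeR 4.0.16 in R 4.3.3 (filterByExpr by group, TMM factors, robust quasi-likelihood fit, two-sided, Benjamini-Hochberg over all genes tested, called at 0.05), without a block as the planned fit. The replicate number was added as a block because libraries of equal number deviated together (0.233, 0.487, 0.376 and 0.376, and at most 0.0456 between different numbers); this pairing comes from the data, not the labels. Log2 CPM values within pairs used a prior count of 2. Standard errors are the log2 fold change over the root of the F statistic. Alternatives used DESeq2 1.42.0 and limma 3.58.1. Both fits were run on simulated counts with a built-in effect shared by libraries of equal replicate number. Only the blocked fit had a pass criterion there, and the simulation cannot show that the real libraries are paired. Coordinates, exon lengths and overlaps come from GENCODE M21, which holds 53706 of the 53801 identifiers, and windows shared between copies from its transcripts. For symbols with several identifiers the lowest one was used.

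The members and lists were chosen with earlier results of these data known. All 9 members are named, with, except for 1 result that is not reported here, those other complement genes that were called or were the 2 most abundant of their role, and the 5 genes nearest to C3 among those of at least 5 CPM.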

Additional observations from a re-analysis of the deposited data

Results flagged for a closer look

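In 18 groups of 4 libraries looked at for the 9 genes, 3 had a library far from the other members of its group, where chance gives about 1 in 20. YFP-negative replicate 4 was high for C4b, with a gap to the next library of 0.932 of the group's range. YFP-positive replicate 1 was high for Cfb, with a gap of 0.877 of the range, and YFP-positive replicate 2 was high for Cfd, with a gap of 0.988. The Cfb gap rests on 28 counts and the Cfd gap on 93 counts.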

How the results depend on the processing

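Without the block, the count of genes called stayed at 0 under the other scalings, filters, limma voom and with single libraries left out, and was 2 with DESeq2; the count of members called was 0 throughout. With the replicate block 364 genes were called (111 higher, 253 lower), 364 with RLE factors, 365 with library sizes alone (212 higher, 153 lower), 367 without mitochondrial genes, 416 with the stricter filter, 525 with DESeq2, 584 with limma voom and 673 with the looser filter. Leaving out both libraries of replicate number 1, 2, 3 or 4 gave 194, 426, 157 and 167. The members called with the block numbered 4, and 4 with RLE factors, either filter or no mitochondrial genes, 3 with library sizes alone, 6 with DESeq2 and limma voom, and 3 to 4 with a replicate number left out. The cause of these differences was not tested. The unblocked estimate for Cd55 ranged from -0.63 without YFP-negative replicate 2 and turned to 0.15 without YFP-negative replicate 4 and to 0.0044 without YFP-positive replicate 2; no other tested member turned. The mean difference between activators and regulators stayed below 0, from -0.43 with summed CPM to -0.051 without replicate 3, and from -0.34 to -0.051 with single replicate numbers left out. By TPM, C1s1 ranked 3 and C4b ranked 4, the reverse of their RPKM order. Cfb and Cfd had too few counts to pass the filter of the main fits. With the looser filter all 9 members were tested, and neither Cfb nor Cfd was called with or without the block.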
